A study of Mus musculus with 23 samples.

Results

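Cytochrome P450 families 1 to 3 are the xenobiotic-metabolising P450 enzymes, and their genes were followed in mouse liver as a set. The members were the genes whose symbol begins with Cyp1, Cyp2 or Cyp3 followed by a subfamily letter and a number, pseudogene symbols left out, with at least 10 reads in at least 5 of the 23 libraries. Of 60 genes with such a symbol, 52 met the minimum, out of 24062 genes counted in the series. The remaining 8 were Cyp2b19, Cyp2b23, Cyp2c65, Cyp2c66, Cyp2j11, Cyp2j12, Cyp2j13 and Cyp2w1, none of which exceeded 5 reads in any library. The rule used abundance and symbol alone, but the set was chosen with earlier results of these data known. Cyp2g1, Cyp2j8 and Cyp3a57 met the minimum only with saline libraries counted. Cyp2j8, Cyp2s1, Cyp2t4 and Cyp3a57 met it only with WT libraries counted. All 52 members also passed the abundance filter of the statistical fit. Just outside the minimum stood genes with at most 5 reads, and just inside it Cyp2j8 reached 10 reads in 9 libraries and Cyp3a57 in 11.

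Livers of wild-type (WT) mice and of mice labelled Ehhadh knockout (KO) were compared after L-AC or saline by polyA RNA sequencing. Ehhadh encodes the L-bifunctional enzyme of peroxisomal beta-oxidation. The labels give the treatment only as L-AC; the compound that usually carries this abbreviation in work on fatty acid oxidation is L-aminocarnitine, an inhibitor of carnitine palmitoyltransferase 2. Dose, route, duration and feeding state are not stated in the labels. All mice were of a mixed B6/129 strain, each library came from 1 mouse, and the labels give no sex, litter or batch. The 4 groups were KO mice given L-AC (5 mice aged 28 to 38 weeks), WT mice given L-AC (6 mice aged 28 to 44 weeks), KO mice given saline (5 mice aged 31 to 44 weeks) and WT mice given saline (7 mice aged 29 to 45 weeks). How the KO allele was made and in which cells it acts is not stated in the labels, and saline was the vehicle of both control groups.

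Microsomal P450s are heme enzymes of the endoplasmic reticulum that insert 1 oxygen atom into a substrate, with electrons passed on from NADPH by P450 oxidoreductase (Por) and in part by cytochrome b5. In the liver, families 1 to 3 oxidise drugs, toxicants, steroids, bile acids, retinoids and polyunsaturated fatty acids, and most are made in the hepatocytes around the central vein. Their transcription answers to nuclear receptors and related factors: the aryl hydrocarbon receptor (Ahr) acts on Cyp1a, CAR (Nr1i3) on Cyp2b and PXR (Nr1i2) on Cyp3a genes. In mice many of them, among them members of Cyp2a, Cyp2b, Cyp2c, Cyp2d and Cyp3a, also differ between males and females through the pulse pattern of growth hormone.

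Libraries held 24521896 to 48095959 counted reads. In every KO library Ehhadh, the targeted gene, lay under the WT libraries of the same treatment, with means of 1658 CPM in KO mice given L-AC, 13037 CPM in WT mice given L-AC, 141.6 CPM in KO mice given saline and 954 CPM in WT mice given saline. Ehhadh reads thus remained in the KO libraries, and the KO mean after L-AC lay above the WT mean after saline. CPM here are read counts over the TMM-scaled library size. The first principal component of all tested genes, which held 55.2% of the variance, separated the L-AC libraries from the saline libraries, with WT saline replicate 1 at -28.09 and every other saline library at -40.32 or below. Calls and non-overlaps of P450 genes that turn on this library are given with and without it below. The Y-linked gene Ddx3y had 1668 to 3973 reads in every library and Xist at most 58, so the female-predominant P450s were measured in livers with Y-linked expression. Summed hepatocyte markers (10 genes, Alb among them) ranged over 38171 to 62350 CPM in KO mice given L-AC, 49604 to 60187 CPM in WT mice given L-AC, 71067 to 82970 CPM in KO mice given saline and 66623 to 79529 CPM in WT mice given saline.

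The 52 members together took a smaller share of the liver's reads after L-AC. They held 1.28% ± 0.196 of all counted reads in KO mice given L-AC and 2.41% ± 0.159 in KO mice given saline (SD, n = 5 each), a ratio of 53.2%. In WT mice the share was 1.43% ± 0.0914 after L-AC (SD, n = 6) and 2.33% ± 0.312 after saline (SD, n = 7), a ratio of 61.3%, or 59.0% without WT saline replicate 1. On the scale of level per length (RPKM, CPM per kilobase of exon), the summed level was 6716 ± 1326 in KO mice given L-AC, 7707 ± 587 in WT mice given L-AC, 13578 ± 1038 in KO mice given saline and 13165 ± 1818 in WT mice given saline. Hepatocyte markers moved the same way: 6 of 10 were called lower in KO mice and 5 of 10 lower and 1 higher in WT mice, and their part in the lower P450 level was not tested. Over all genes, 23.6% were called lower in KO mice, and in WT mice 26.7% lower and 26.6% higher. In whole liver, fewer cells of a type and less RNA per cell cannot be told apart.

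**Figure D1:**
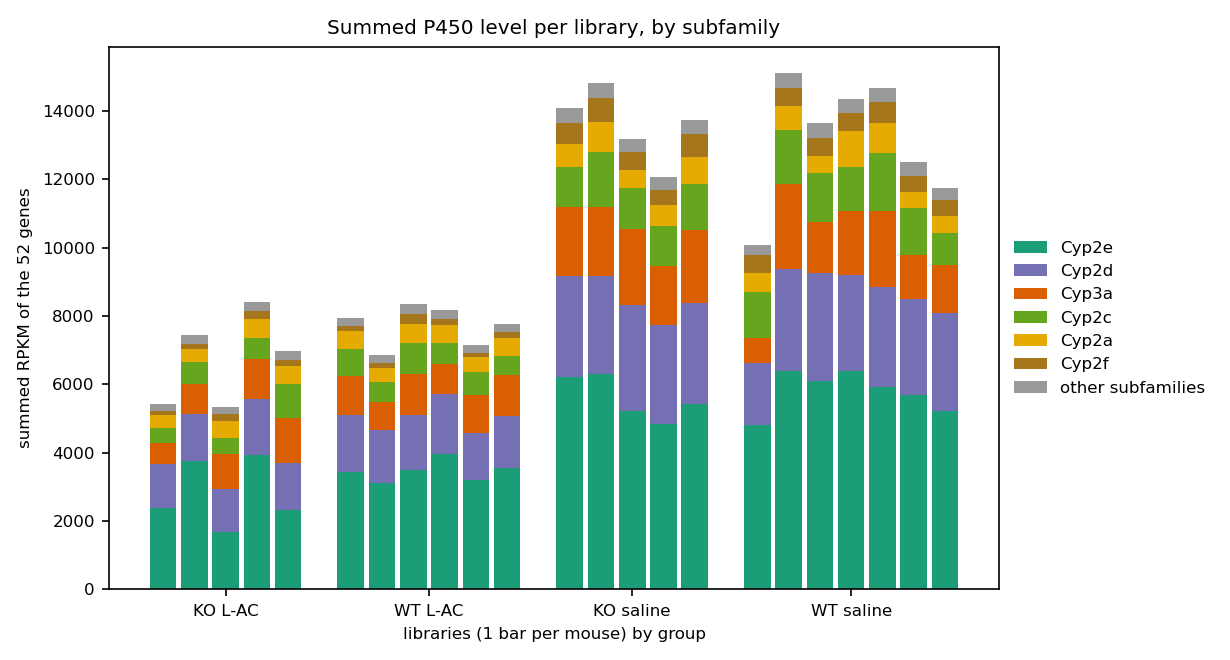
Summed level of the 52 P450 genes in each library, in RPKM, stacked by subfamily, with KO L-AC, WT L-AC, KO saline and WT saline libraries in turn. Bars of the L-AC libraries are lower than those of the saline libraries in both genotypes, and Cyp2e1, the lowest block, takes the largest part of every group's mean.

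Cyp2e1, which oxidises ethanol, acetone and paracetamol, dominated the set in every group. Its share of the summed RPKM was 41.1% ± 8.45 in KO mice given L-AC, 44.8% ± 2.31 in WT mice given L-AC, 41.2% ± 2.08 in KO mice given saline and 44.1% ± 2.4 in WT mice given saline. Cyp3a11, Cyp2d9 and Cyp2d26 came next in mean RPKM, in this order in all 4 groups. Below them the order differed between treatments: Cyp2d10 was at place 6 in every group, Cyp2a12 at 5 in both L-AC groups and 9 in both saline groups, Cyp2f2 at 8 in both L-AC groups and 5 in both saline groups, and Cyp2c29 at 7 or 8. Cyp3a11 and Cyp2d9 could not be ordered in WT saline livers, where they had 1144 ± 516 and 1143 ± 252 RPKM (SD, n = 7). Cyp2c29 and Cyp2a12 likewise stood at 413 ± 112 and 371 ± 70.3 RPKM there, closer than their spread. The number of members with a mean over 100 RPKM was 10 in KO mice given L-AC, 11 in WT mice given L-AC, 18 in KO mice given saline and 19 in WT mice given saline. At the other end, 13 members in each L-AC group and 12 in each saline group averaged under 1 RPKM.

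The Cyp2d subfamily held 21.1%, 20.6%, 21.9% and 21.1% of the summed RPKM in KO L-AC, WT L-AC, KO saline and WT saline livers, and the Cyp3a subfamily 14.9%, 13.7%, 15% and 12.1%. Cyp2f, which is Cyp2f2 alone, held less on average after L-AC, with 2.79% and 2.19% in KO and WT mice given L-AC and 4.45% and 4.02% in KO and WT mice given saline. Its shares overlapped between treatments in KO mice. Cyp2a held a larger mean share after L-AC, with 7.17% and 6.38% in KO and WT mice given L-AC and 5.0% and 5.04% in KO and WT mice given saline. Libraries overlapped, at 5.09 to 9.48% after L-AC and 3.90 to 5.95% after saline in KO mice. In WT mice they lay at 5.92 to 6.81% and 3.78 to 7.32%. The summed Cyp2a level itself was lower after L-AC, at 470 against 683 RPKM (KO) and 494 against 668 RPKM (WT) on average. Cyp2b was small in every group but its mean share was larger after L-AC, at 0.361% and 0.335% in KO and WT mice given L-AC and 0.118% and 0.110% in KO and WT mice given saline. Its libraries also overlapped in both genotypes, with WT saline replicate 4 at 0.376%. These shares are descriptions without a test.

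In KO mice, 31 of the 52 P450 genes were called lower after L-AC and 1, Cyp2b10, was called higher, by edgeR's quasi-likelihood test at a Benjamini-Hochberg adjusted p under 0.05 over all 14196 genes tested. Over all genes, 23.6% were called lower and 25.2% higher in that comparison, against 59.6% of the members lower. In WT mice, 31 members were called lower and 2, Cyp2b10 and Cyp2s1, higher, where 26.7% of all genes were called lower and 26.6% higher. The median log2 fold change of the members was -0.93 in KO mice and -0.79 in WT mice, against -0.0054 and -0.0086 over all genes tested. Cyp2g1 is among the members called lower in both genotypes, although it met the minimum through saline libraries alone and so had to differ. Cyp3a57, also called lower in both, met the minimum only with its saline libraries counted. Changes of more than 2-fold downward were called for 18 members in KO mice (34.6%, against 8.3% of all genes) and for 17 in WT mice (32.7%, against 7.92% of all genes). Upward, Cyp2b10 was the member past 2-fold in each genotype, where 6.88% of all genes in KO mice and 6.25% in WT mice were.

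Libraries did not overlap, with every L-AC library under every saline library, for 28 members in KO mice (53.8%, against 15.5% of all genes) and for 16 in WT mice (30.8%, against 12.1%). Cyp2g1 is among them in both genotypes and Cyp3a57 in KO mice, and these met the minimum only with saline libraries counted. Every L-AC library lay above every saline library for 1 member in each genotype, Cyp2b10, where 17.1% of all genes in KO mice and 12% in WT mice did so. Without WT saline replicate 1, left out after the data had been seen, the WT count without overlap was 23 lower (44.2%, against 15.1% of all genes) and 1 higher (15.9% of all genes). The 7 members gained were Cyp1a2, Cyp2d9, Cyp2d12, Cyp2d26, Cyp2d40, Cyp2j9 and Cyp3a16, each of which overlapped through that library alone. The calls themselves then numbered 34 lower in WT mice and 32 lower in KO mice. Over all 14197 genes of that fit, 7726 in WT mice and 7105 in KO mice were called in either direction. With all libraries these were 7572 and 6924 of 14196. Cyp2a5 (log2 fold change -0.72, adjusted p = 0.0488), Cyp2c29 (-0.61, 0.0212), Cyp3a11 (-0.64, 0.015) and Cyp3a41b (-1.01, 0.0342) were then called in WT mice, and Cyp2c37 (-0.88, 0.0655) and Cyp2s1 (0.64, 0.0756) no longer were, by edgeR's quasi-likelihood test. Cyp3a44 was then called in KO mice (-0.78, 0.022).

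Called lower in both genotypes were 27 members, and 15 were called in neither. The share of all genes called in both or in neither was not computed, so these counts are a description of the members only. The calls lower in KO mice only were Cyp1a1, Cyp2a5, Cyp2c29 and Cyp3a11, and those lower in WT mice only were Cyp2a12, Cyp2c37, Cyp2j6 and Cyp3a16. These 8 are not shown to differ between genotypes, since no member passed the test of the interaction of genotype and L-AC. The treated and control mice of the 2 genotypes were separate animals.

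**Figure D2:**
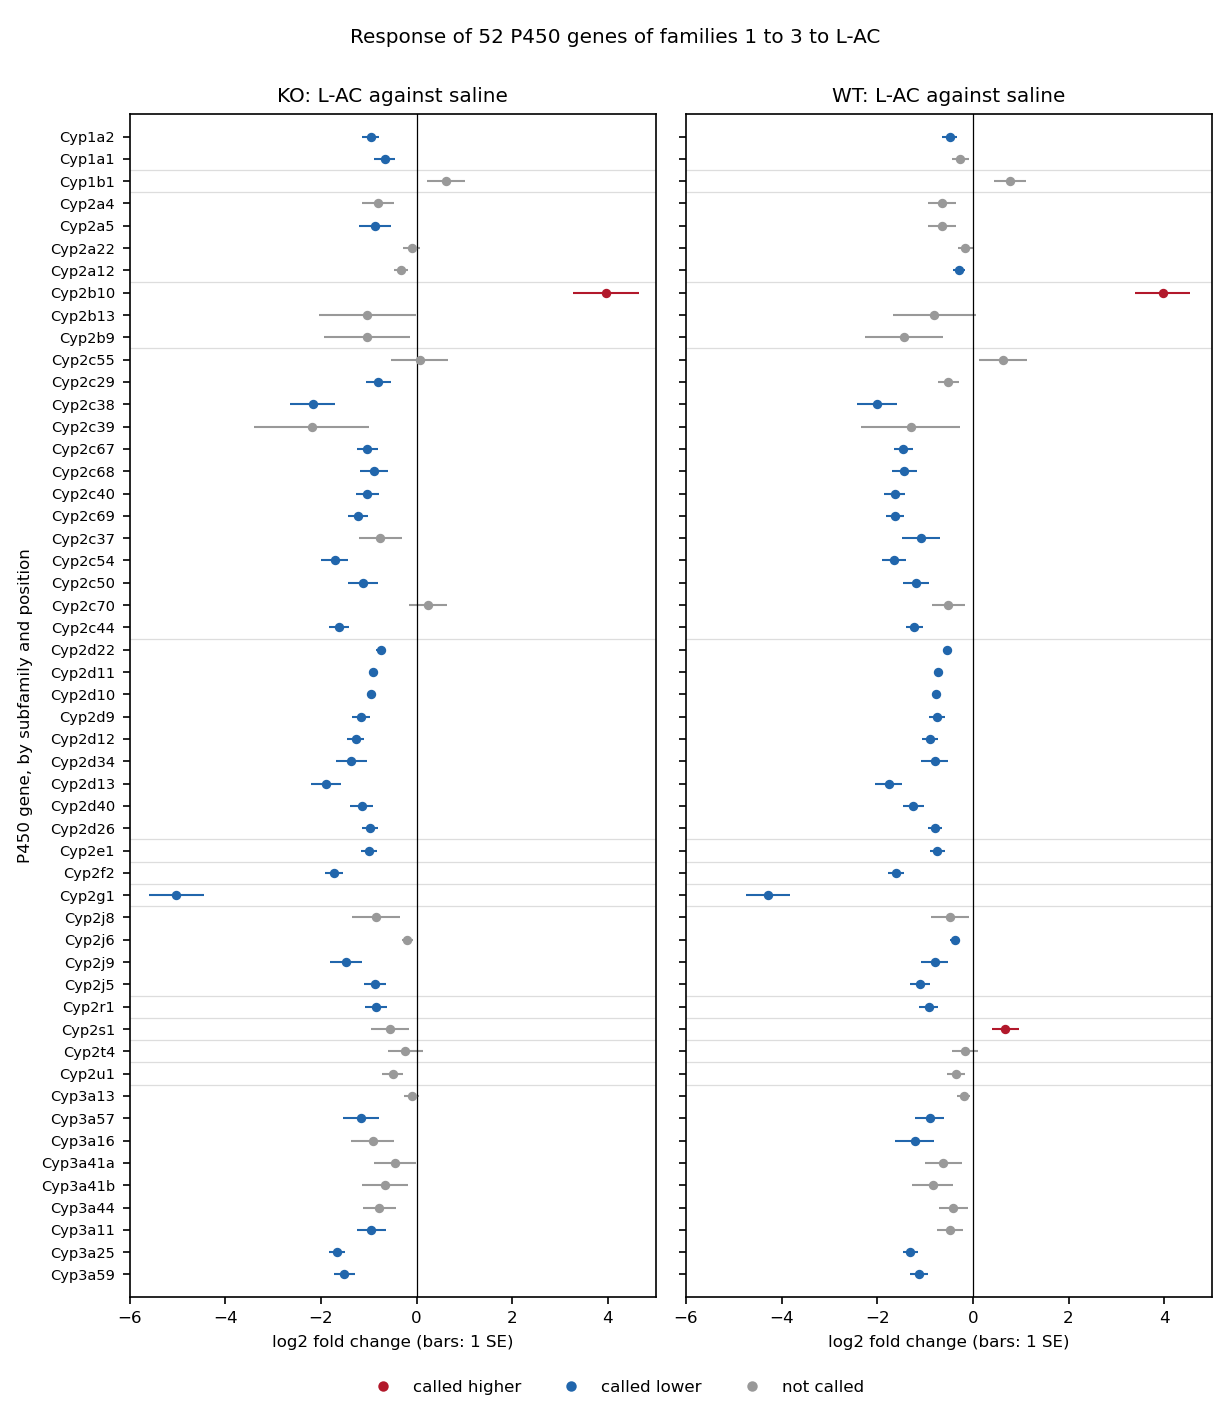
Log2 fold change of L-AC over saline for each of the 52 P450 genes, KO mice in the left panel and WT mice in the right, with bars of 1 SE. Red points were called higher, blue points lower and grey points neither (adjusted p under 0.05); Cyp2b10 stands to the right at 3.96 and 3.97, and the point farthest left is Cyp2g1, whose L-AC libraries held 0 to 2 reads.

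Cyp2b10, the CAR target that phenobarbital induces in mouse liver, was the member that rose in both genotypes. The KO mice given L-AC had 16.8, 8.73, 26.0, 20.3 and 86.2 CPM, against 0.823, 5.96, 0.883, 0.545 and 2.38 CPM in the KO mice given saline. WT mice given L-AC had 16.6 CPM at the lowest, 37.6 at the median and 60.2 at the highest, against 0.430, 2.4 and 5.71 CPM in WT mice given saline. Every treated library lay above every saline library of its genotype. The log2 fold change was 3.96 (SE 0.68, adjusted p = 5.81e-05) in KO mice and 3.97 (SE 0.58, adjusted p = 6.16e-06) in WT mice by edgeR's quasi-likelihood test, that is 15.5-fold and 15.7-fold. KO L-AC replicate 5 was the highest of its group, and without it the KO value was 3.14 (adjusted p = 0.000232), whereas without KO saline replicate 2, the highest of the saline group, it was 4.72 (adjusted p = 1.85e-05). In order of mean RPKM among the 52 members, Cyp2b10 stood at place 26 in both L-AC groups, at 40 in KO mice given saline and at 39 in WT mice given saline.

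Cyp2b10 lies on chromosome 7 in a cluster with Cyp2b13 and Cyp2b9, which are female-predominant P450s of the same subfamily in mouse liver, and neither neighbour was called in either genotype. The 250 bases before the annotated start of the 3 genes are given because these neighbours shared a subfamily and a cluster but not a call. They are taken from RefSeq on GRCm38.p6, plus strand, at chr7:25897408-25897657 for Cyp2b10, chr7:26173159-26173408 for Cyp2b9 and chr7:26061245-26061494 for Cyp2b13. Capitals mark AGGTCA, the core sequence that many nuclear receptors bind, where it was found on either strand.
Cyp2b10: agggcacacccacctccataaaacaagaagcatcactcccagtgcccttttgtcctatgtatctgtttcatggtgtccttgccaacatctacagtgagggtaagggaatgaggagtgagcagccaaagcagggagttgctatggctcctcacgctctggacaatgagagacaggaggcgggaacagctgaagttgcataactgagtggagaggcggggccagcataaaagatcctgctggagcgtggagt
Cyp2b9: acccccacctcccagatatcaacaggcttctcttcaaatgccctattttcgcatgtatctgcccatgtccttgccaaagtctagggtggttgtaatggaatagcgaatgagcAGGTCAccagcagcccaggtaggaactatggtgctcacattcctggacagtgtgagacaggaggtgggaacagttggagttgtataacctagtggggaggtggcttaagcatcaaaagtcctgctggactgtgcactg
Cyp2b13: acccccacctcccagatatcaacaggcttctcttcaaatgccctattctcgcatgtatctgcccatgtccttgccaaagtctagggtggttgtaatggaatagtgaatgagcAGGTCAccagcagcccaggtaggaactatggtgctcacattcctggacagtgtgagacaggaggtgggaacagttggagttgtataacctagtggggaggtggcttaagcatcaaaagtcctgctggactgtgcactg
The Cyp2b9 and Cyp2b13 windows were identical at 248 of 250 bases (99.2%), and each held AGGTCA 138 bases before the start. Cyp2b10 matched each of them at 70.0% of 260 aligned columns and held no AGGTCA in these bases, which says nothing of sites elsewhere. AGGTCA was present in 14.0% of 32851 promoter windows of the same length and in 14 of 46 windows of the members (30.4%).

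Cyp2b9 and Cyp2b13 varied widely from mouse to mouse. Cyp2b9 ranged over 1.74 to 35.1 CPM in KO mice given L-AC and 8.70 to 68.5 CPM in KO mice given saline, and it reached 87.9 CPM in WT saline replicate 4 while the lowest WT saline library had 2.32 CPM. Cyp2b13 ranged over 0.143 to 7.86 CPM among the 7 WT mice given saline. The log2 fold changes, -1.04 (SE 0.90) and -1.44 (SE 0.81) for Cyp2b9 and -1.03 (SE 1.02) and -0.80 (SE 0.87) for Cyp2b13 in KO and WT mice, had wide errors. They also turned on single mice: without WT saline replicate 4 the WT values were -0.65 for Cyp2b9 and 0.31 for Cyp2b13, and without WT L-AC replicate 3 that of Cyp2b13 was -1.55. In KO mice, Cyp2b9 had -0.37 and Cyp2b13 -0.31 without KO saline replicate 2, and Cyp2b9 had -1.79 without KO L-AC replicate 2. The ratio of Cyp2b9 to Cyp2b13 lay between 5.29 and 32.2 over the 23 libraries, with a median of 15.1. In 9.29% of the 100-base windows of Cyp2b13 and 1.18% of those of Cyp2b9 the transcript sequence also occurs in another gene, so some reads could not be placed with certainty.

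**Figure D3:**
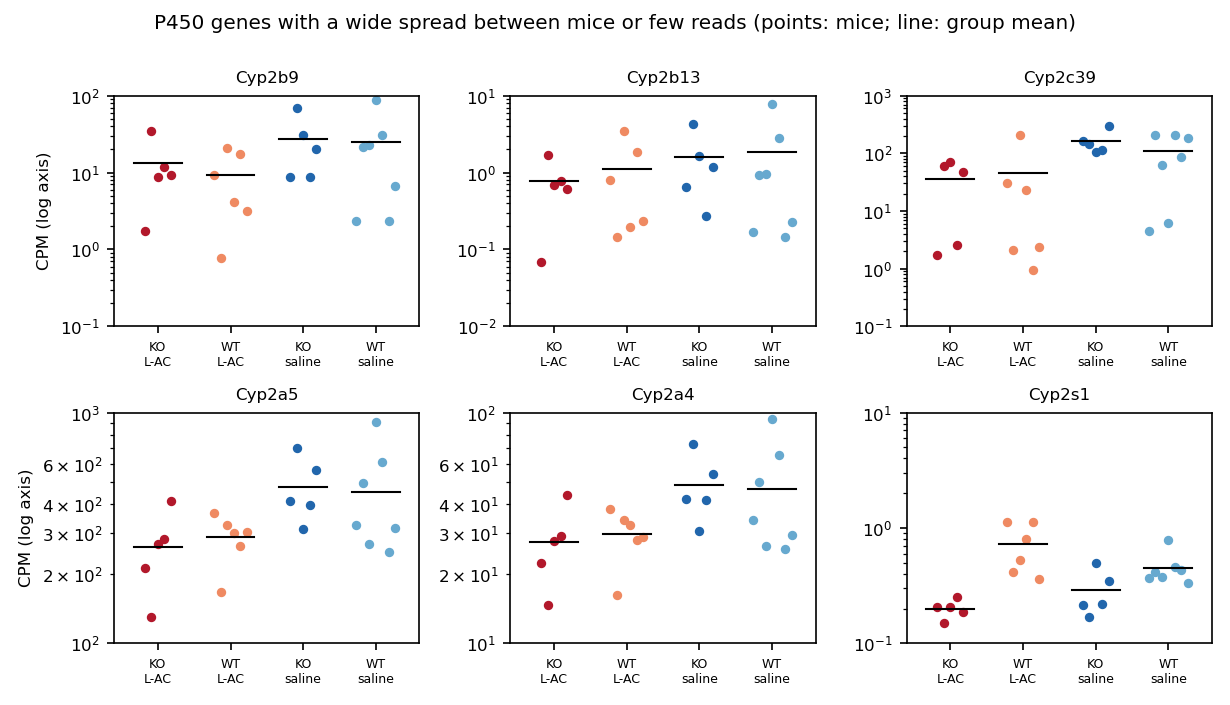
CPM on a log axis of Cyp2b9, Cyp2b13, Cyp2c39, Cyp2a5, Cyp2a4 and Cyp2s1, 1 point per library and a line at the group mean, for KO L-AC, WT L-AC, KO saline and WT saline. Cyp2c39 spans 0.936 to 209 CPM among WT mice given L-AC, while Cyp2a5 and Cyp2a4 keep nearly the same pattern of points in every group.

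Cyp2e1 fell in both genotypes. The KO mice given L-AC had 4117, 6538, 2885, 6799 and 4042 CPM, against 10804, 10935, 9058, 8391 and 9404 CPM in the KO mice given saline. In WT mice the lowest, median and highest values were 5373, 5996 and 6846 CPM after L-AC and 8367, 10268 and 11070 CPM after saline. The libraries of the 2 treatments did not overlap in either genotype. The log2 fold change was -0.995 (SE 0.17, adjusted p = 6.59e-05, edgeR's quasi-likelihood test) in KO mice and -0.74 (SE 0.15, adjusted p = 0.000322) in WT mice.

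Family 1 is made up of Cyp1a1, Cyp1a2 and Cyp1b1, the enzymes of polycyclic hydrocarbons, arylamines and estradiol that Ahr induces. Cyp1a2, the abundant hepatic one, had 190, 136, 156, 160 and 236 CPM in KO mice given L-AC, against 423, 343, 314, 320 and 303 CPM in KO mice given saline. Its WT values were 187, 241 and 275 CPM (lowest, median and highest) after L-AC and 187, 353 and 426 CPM after saline. The KO groups did not overlap, and the WT groups did so through WT saline replicate 1 alone, the other 6 WT saline libraries lying at 294 CPM or above. Cyp1a2 was called lower in both genotypes, with log2 fold changes of -0.96 (adjusted p = 0.000107) and -0.48 (adjusted p = 0.0107; -0.59 without that library, adjusted p = 0.000624) by edgeR's quasi-likelihood test. Cyp1a1, at 1.74 to 3.49 CPM in KO mice given L-AC and 2.78 to 4.65 CPM in KO mice given saline, was called lower in KO mice (log2 fold change -0.67), and its WT value of -0.26 did not pass (adjusted p = 0.228). Cyp1b1, at or under 1.45 CPM in all KO libraries, was not called (0.62 in KO mice, 0.77 in WT mice).

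Of the 9 Cyp3a genes on chromosome 5, 4 were called lower in KO mice and 4 in WT mice. This was 44.4% in each, against 23.6% and 26.7% of all genes. Cyp3a25, which hydroxylates testosterone, had 263, 263, 272, 356 and 237 CPM in KO mice given L-AC, against 1018, 832, 804, 848 and 885 CPM in KO mice given saline. WT values were 255, 317 and 404 CPM (lowest, median and highest) after L-AC, against 521, 850 and 1021 CPM after saline. The groups did not overlap, and the log2 fold changes were -1.66 (SE 0.17, adjusted p = 8e-08) and -1.31 (SE 0.15, adjusted p = 2.9e-07) in KO and WT mice by edgeR's quasi-likelihood test. Cyp3a59, its neighbour on the chromosome, was called lower in both genotypes (-1.51 and -1.12). It averaged 17.2 ± 3.23 CPM in KO L-AC, 20.3 ± 4.13 CPM in WT L-AC, 49.1 ± 8.30 CPM in KO saline and 44.2 ± 15 CPM in WT saline livers (SD).

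Cyp3a11, the most abundant Cyp3a gene of mouse liver and a PXR target, had 798, 1361, 1659, 1845 and 2296 CPM in KO mice given L-AC, against 2921, 3108, 3582, 2454 and 3243 CPM in KO mice given saline. In WT mice it had 1216, 1830 and 1959 CPM (lowest, median and highest) after L-AC and 673, 2134 and 3906 CPM after saline. The KO groups did not overlap, whereas the WT saline range enclosed the WT L-AC range. Cyp3a11 was called lower in KO mice (log2 fold change -0.94, adjusted p = 0.0152) and missed the threshold in WT mice (-0.48, adjusted p = 0.142) by edgeR's quasi-likelihood test. Without WT saline replicate 1 the WT value was -0.64 (adjusted p = 0.015). Cyp3a57 was called lower in both genotypes (-1.16 and -0.91; -0.73 in WT mice, adjusted p = 0.0519, without WT saline replicate 5) and Cyp3a16, a fetal form, in WT mice (-1.22) but not in KO mice (-0.91). Cyp3a57 reached 10 reads in 4 KO saline and 5 WT saline libraries, but in 0 KO L-AC and 2 WT L-AC libraries. It met the minimum only with its saline libraries counted, so its fall is given as a description. Cyp3a13, Cyp3a44, Cyp3a41a and Cyp3a41b were not called, with log2 fold changes between -0.84 and -0.10. Cyp3a41a and Cyp3a41b share 2064 exon bases and a read there was counted for both, so their values are not separate measurements.

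The 13 Cyp2c members lie on chromosome 19 and encode enzymes that epoxidise or hydroxylate arachidonic and linoleic acid, retinoids and many drugs. In KO mice 9 of them were called lower and in WT mice also 9, with none higher. The share lower was 69.2% in each, against 23.6% and 26.7% of all genes. Of all genes, 25.2% and 26.6% were called higher. Cyp2c38, an arachidonic acid epoxygenase, had 7.20, 31.1, 13.9, 13.7 and 22.8 CPM in KO mice given L-AC, against 66.8, 89.8, 63.9, 71.0 and 108 CPM in KO mice given saline. In WT mice it had 7.32, 13.3 and 52.0 CPM (lowest, median and highest) after L-AC and 34.5, 69.5 and 147 CPM after saline. KO libraries did not overlap and WT libraries did, through WT L-AC replicate 3. The log2 fold changes were -2.17 (SE 0.46, adjusted p = 0.000524) in KO mice and -2.0 (SE 0.41, adjusted p = 0.000309) in WT mice by edgeR's quasi-likelihood test, and without that WT library -2.59 (adjusted p = 4.44e-06).

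Cyp2c54 had 46.3, 81.8, 33.7, 95.3 and 82.1 CPM in KO mice given L-AC, against 175, 376, 190, 155 and 216 CPM in KO mice given saline, and no library overlapped in WT mice either (65.9 to 90.4 CPM after L-AC, 114 to 305 CPM after saline). Cyp2c44, another epoxygenase, lies apart from the cluster at chr19:44005022-44029247 and had 77.9, 72.3, 82.8, 77.5 and 166 CPM in KO mice given L-AC, against 322, 281, 219, 328 and 315 CPM in KO mice given saline. Its WT ranges were 88.7 to 135 CPM after L-AC and 180 to 323 CPM after saline, also without overlap. The log2 fold changes in KO and WT mice were -1.71 and -1.65 for Cyp2c54 and -1.62 and -1.22 for Cyp2c44.

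A neighbouring block of Cyp2c genes on the minus strand, Cyp2c67, Cyp2c68, Cyp2c40 and Cyp2c69, moved together. All 4 were called lower in both genotypes, with log2 fold changes of -1.03, -0.89, -1.03 and -1.22 in KO mice and -1.45, -1.43, -1.64 and -1.63 in WT mice, in that order. Cyp2c67 averaged 108 ± 25.7 CPM in KO L-AC, 92.9 ± 24.2 CPM in WT L-AC, 220 ± 57.0 CPM in KO saline and 254 ± 65.2 CPM in WT saline livers (SD). Cyp2c68 averaged 44.6 ± 12.8 CPM in KO L-AC, 40.7 ± 13.6 CPM in WT L-AC, 82.5 ± 14.5 CPM in KO saline and 110 ± 50.5 CPM in WT saline livers (SD). The treatments did not overlap for Cyp2c67 in either genotype, and for Cyp2c68 they overlapped in WT mice but not in KO mice. Cyp2c40 averaged 9.53 ± 1.53 CPM in KO L-AC, 8.33 ± 1.55 CPM in WT L-AC, 19.4 ± 3.78 CPM in KO saline and 26.0 ± 12.4 CPM in WT saline livers (SD). Cyp2c69 averaged 13.2 ± 2.70 CPM in KO L-AC, 11.4 ± 3.10 CPM in WT L-AC, 30.9 ± 6.27 CPM in KO saline and 35.2 ± 9.01 CPM in WT saline livers (SD). Neither of these overlapped between treatments in either genotype. Their transcripts share sequence: 44.1% of the 100-base windows of Cyp2c40, 36.3% of those of Cyp2c69 and 23.7% of those of Cyp2c67 also occur in another gene, so reads may be split among them. Cyp2c50 was called lower in both genotypes (-1.12 and -1.18). Cyp2c29, which epoxidises arachidonic acid, averaged 449 ± 202 CPM in KO L-AC, 518 ± 149 CPM in WT L-AC, 779 ± 126 CPM in KO saline and 738 ± 199 CPM in WT saline livers (SD). It was called in KO mice (-0.80, adjusted p = 0.0124, edgeR's quasi-likelihood test) and had -0.51 in WT mice (adjusted p = 0.058, and 0.0212 to 0.0486 without any of 5 libraries: WT saline replicate 1, WT L-AC replicates 1 and 3, KO L-AC replicates 1 and 5). Cyp2c37 was called in WT mice (-1.09, adjusted p = 0.026) and had -0.76 in KO mice (adjusted p = 0.169). The WT call of Cyp2c37 was lost without WT saline replicate 1, WT L-AC replicate 3 or WT L-AC replicate 4 (adjusted p = 0.0504 to 0.0655).

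Cyp2c70, which makes the muricholic acids of mouse bile, was not called, with log2 fold changes of 0.24 (SE 0.40) in KO mice and -0.51 (SE 0.35) in WT mice, and neither was Cyp2c55 (0.07 and 0.62). Cyp2c39, a retinoic acid hydroxylase, had the widest spread between mice of this subfamily. It had 1.74, 59.5, 69.4, 2.54 and 47.3 CPM in KO mice given L-AC, against 162, 145, 105, 116 and 298 CPM in KO mice given saline. WT ranges were 0.936 to 209 CPM after L-AC and 4.42 to 211 CPM after saline. The KO groups did not overlap and the WT groups covered almost the same span, yet the estimate missed the threshold in both (-2.19, SE 1.20, adjusted p = 0.135 and -1.30, SE 1.04, adjusted p = 0.3, edgeR's quasi-likelihood test). Without WT L-AC replicate 3, the highest of its group, the WT value was -3.22 (adjusted p = 0.0136).

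**Figure D4:**
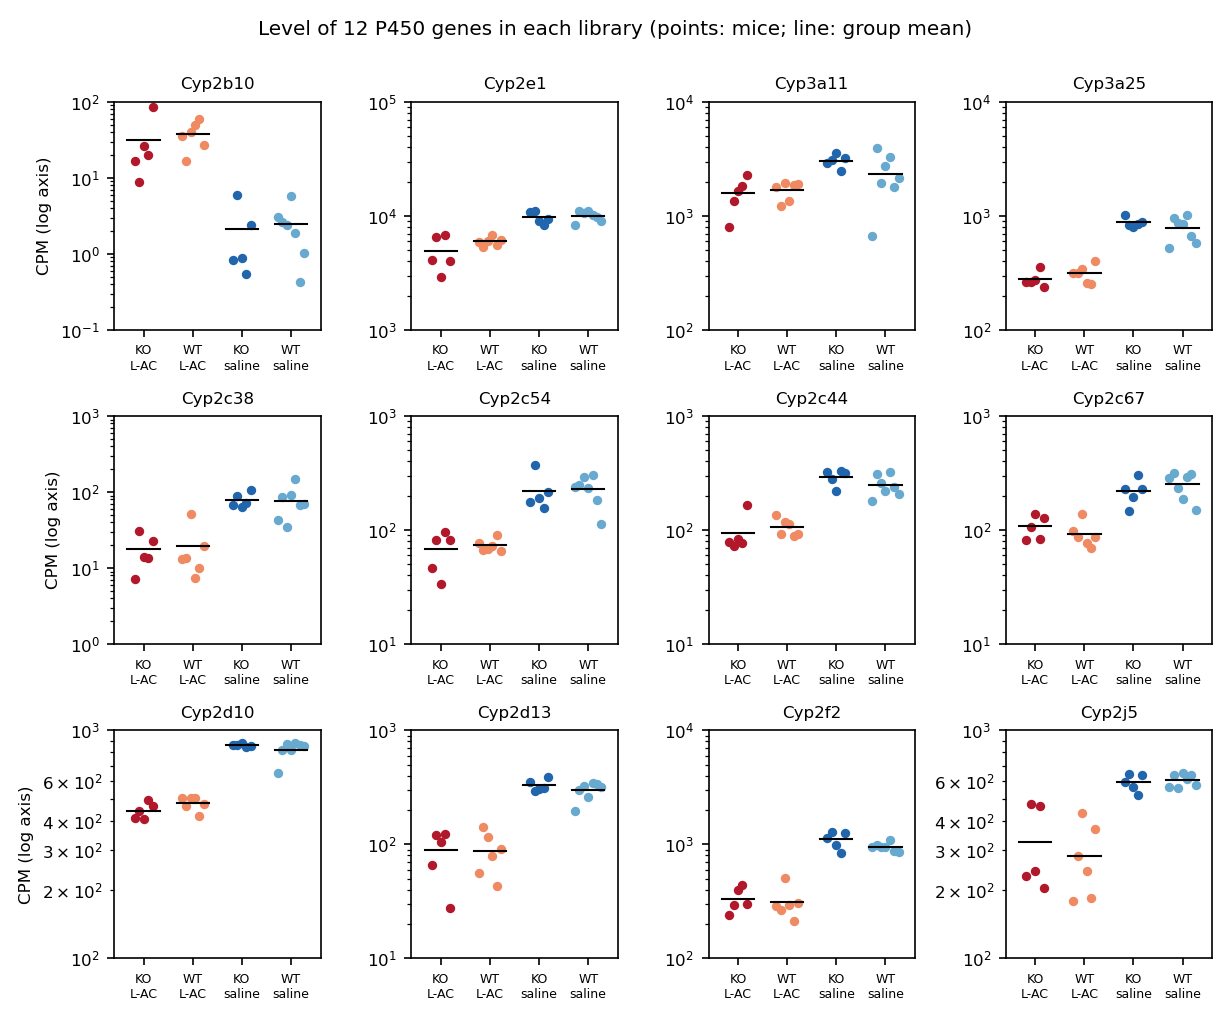
CPM on a log axis of 12 P450 genes, 1 point per library and a line at the group mean, for KO L-AC, WT L-AC, KO saline and WT saline. Cyp2b10 is higher in the L-AC libraries, and the points of Cyp2e1, Cyp3a25, Cyp2c54, Cyp2c44 and Cyp2f2 are lower in the L-AC libraries of both genotypes without overlap.

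All 9 Cyp2d genes, which lie side by side at chr15:82370527-82794245, were called lower in both genotypes. Of all genes, 23.6% in KO mice and 26.7% in WT mice were. Their log2 fold changes ran between -1.90 and -0.75 in KO mice and between -1.76 and -0.53 in WT mice. Cyp2d10 had the smallest SE of the 9: KO mice given L-AC had 411, 442, 409, 494 and 467 CPM, against 865, 860, 882, 849 and 854 CPM in KO mice given saline. WT mice had 420, 489 and 507 CPM (lowest, median and highest) after L-AC and 653, 850 and 878 CPM after saline. The groups did not overlap, and the log2 fold changes were -0.96 (SE 0.09, adjusted p = 1e-08) and -0.78 (SE 0.08, adjusted p = 2e-08) in KO and WT mice by edgeR's quasi-likelihood test.

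Cyp2d13 changed most in this cluster, with 66.3, 121, 104, 124 and 27.7 CPM in KO mice given L-AC, against 350, 291, 307, 311 and 390 CPM in KO mice given saline. WT mice had 43.0, 85.1 and 142 CPM (lowest, median and highest) after L-AC and 198, 320 and 345 CPM after saline, so neither genotype's groups overlapped (log2 fold changes -1.90 and -1.76). Cyp2d9, the testosterone 16-alpha-hydroxylase that male mice express, fell to 881, 603, 770, 1043 and 1076 CPM in KO mice given L-AC, against 1988, 1637, 2251, 2006 and 1896 CPM in KO mice given saline. Its WT libraries, at 868 to 1444 CPM after L-AC and 1064 to 2393 CPM after saline, overlapped through WT saline replicate 1 alone, the other 6 saline libraries lying at 1797 CPM or above. The log2 fold changes were -1.16 and -0.74, the second of them -0.85 without that library. Cyp2d26 averaged 679 ± 162 CPM in KO L-AC, 694 ± 144 CPM in WT L-AC, 1332 ± 93.3 CPM in KO saline and 1195 ± 177 CPM in WT saline livers. Cyp2d12 averaged 21.3 ± 4.67 CPM in KO L-AC, 27.3 ± 5.72 CPM in WT L-AC, 51.6 ± 6.29 CPM in KO saline and 50.8 ± 11.8 CPM in WT saline livers, and Cyp2d40 29.9 ± 9.87 CPM in KO L-AC, 26.2 ± 6.61 CPM in WT L-AC, 66.4 ± 10 CPM in KO saline and 61.9 ± 17.5 CPM in WT saline livers (SD). These 3 did not overlap in KO mice, and in WT mice they overlapped through WT saline replicate 1 alone. The log2 fold changes of the remaining Cyp2d genes were those of Cyp2d34 (-1.36 and -0.80 in KO and WT mice), Cyp2d12 (-1.28 and -0.90), Cyp2d40 (-1.15 and -1.24), Cyp2d26 (-0.97 and -0.78), Cyp2d11 (-0.91 and -0.72) and Cyp2d22 (-0.75 and -0.53). Without WT saline replicate 5 the WT call of Cyp2d34 was lost (-0.61, adjusted p = 0.0578). Cyp2d11 shares 60 exon bases with Mir7684.

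Cyp2f2, which bioactivates naphthalene in mice, fell to 241, 294, 396, 441 and 300.0 CPM in KO mice given L-AC, against 1142, 1292, 994, 841 and 1256 CPM in KO mice given saline. WT mice had 210, 291 and 501 CPM (lowest, median and highest) after L-AC and 861, 944 and 1092 CPM after saline. Neither genotype's groups overlapped, and the log2 fold changes were -1.72 (SE 0.19, adjusted p = 1.7e-07) and -1.62 (SE 0.17, adjusted p = 6e-08) by edgeR's quasi-likelihood test. In the order of mean RPKM among the members it stood at place 8 in both L-AC groups and at 5 in both saline groups. Cyp2g1, known from the olfactory mucosa of mammals, lies beside Cyp2a5 on the same chromosome and had 0 to 2 reads in each L-AC library. It met the minimum of 10 reads in all 12 saline libraries and in no L-AC library, so its difference follows from how members were chosen and is given as a description. Summed over libraries it had 3 reads in KO mice given L-AC and 130 in KO mice given saline, and 7 reads in WT mice given L-AC and 166 in WT mice given saline. As a ratio of reads scaled to library size this is 2.76% (95% interval 0.562 to 8.25%) in KO mice and 4.66% (1.85 to 9.82%) in WT mice, where the intervals cover counting error only.

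The Cyp2j genes on chromosome 4 encode epoxygenases and hydroxylases of arachidonic acid. Cyp2j5 had 229, 473, 242, 465 and 203 CPM in KO mice given L-AC, against 593, 640, 565, 520 and 637 CPM in KO mice given saline, and 178 to 433 CPM in WT mice given L-AC, against 561 to 652 CPM in WT mice given saline. Neither genotype's groups overlapped (log2 fold changes -0.87 and -1.11). Cyp2j9 averaged 6.84 ± 3.00 CPM in KO L-AC, 9.26 ± 2.78 CPM in WT L-AC, 19.0 ± 4.90 CPM in KO saline and 16.2 ± 6.03 CPM in WT saline livers (SD). It was called lower in both genotypes (-1.48 and -0.80), and its WT call was lost without WT saline replicate 5, WT L-AC replicate 4 or WT L-AC replicate 5 (adjusted p = 0.0547 to 0.0553). Cyp2j6 was called lower in WT mice (-0.38; -0.19 in KO mice), and Cyp2j8 was called in neither. Cyp2r1, a vitamin D 25-hydroxylase, had 2.08, 7.48, 4.28, 5.29 and 4.91 CPM in KO mice given L-AC, against 9.38, 8.39, 7.48, 10.1 and 7.79 CPM in KO mice given saline. The KO groups touched at 7.48 CPM, and it was called lower in both genotypes (-0.85 and -0.93). Cyp2u1, a fatty acid omega-hydroxylase, was not called (-0.50 and -0.36).

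Of the 4 Cyp2a genes, Cyp2a5, the coumarin 7-hydroxylase, was called lower in KO mice (-0.86, adjusted p = 0.0351, edgeR's quasi-likelihood test) and had -0.65 in WT mice (adjusted p = 0.0639). It had 213, 130, 270, 282 and 416 CPM in KO mice given L-AC, against 415, 700, 312, 397 and 562 CPM in KO mice given saline, which overlap. Its KO call was lost without any of 5 libraries, KO L-AC replicates 1, 2 and 3 and KO saline replicates 2 and 5 (adjusted p = 0.0552 to 0.107). The female-predominant steroid hydroxylase Cyp2a4 had nearly the same estimates (-0.81 and -0.65) and passed in neither genotype (adjusted p = 0.0523 and 0.0703), although in KO mice it was called in 5 of 7 other settings and in 7 of 23 fits with a library left out (adjusted p = 0.0204 to 0.0496). The ratio of Cyp2a5 to Cyp2a4 stayed between 8.85 and 10.8 in the 23 libraries, with a median of 9.66. Cyp2a12, which hydroxylates steroids and bile acids, averaged 493.4 ± 70.2 CPM in KO L-AC, 506 ± 66.1 CPM in WT L-AC, 618 ± 80.4 CPM in KO saline and 618 ± 117 CPM in WT saline livers (SD). Its log2 fold change was -0.32 (adjusted p = 0.0554) in KO mice and -0.29 (adjusted p = 0.0497) in WT mice, where 14 of 23 fits with a library left out missed the threshold (0.0518 to 0.129), and Cyp2a22 was not called (-0.10 and -0.16).

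The start regions of Cyp2a5 and Cyp2a4 are given because their levels kept a near-constant ratio from library to library. They are the 250 bases before the annotated starts from RefSeq on GRCm38.p6, plus strand, at chr7:26835089-26835338 and chr7:26306942-26307191, with TATAAA, the TATA box motif, in capitals.
Cyp2a5: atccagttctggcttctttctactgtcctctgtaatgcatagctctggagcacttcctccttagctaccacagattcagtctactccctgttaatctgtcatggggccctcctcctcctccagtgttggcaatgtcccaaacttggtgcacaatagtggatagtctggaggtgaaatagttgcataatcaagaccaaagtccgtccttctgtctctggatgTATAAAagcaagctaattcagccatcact
Cyp2a4: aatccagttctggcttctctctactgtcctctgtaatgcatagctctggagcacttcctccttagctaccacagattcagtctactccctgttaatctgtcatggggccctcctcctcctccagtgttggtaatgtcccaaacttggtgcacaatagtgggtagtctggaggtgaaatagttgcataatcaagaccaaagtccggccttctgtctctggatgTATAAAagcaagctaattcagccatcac
The 2 windows were identical at 245 of 251 aligned columns (97.6%), with TATAAA 29 and 28 bases before the start. TATAAA, searched on both strands, was present in 12.4% of all promoter windows of this length and in 23 of 46 windows of the members (50%). The transcripts also share sequence, in 14.4% of the 100-base windows of Cyp2a5 and 11.2% of those of Cyp2a4, and the part of reads placed at either gene in this ratio was not tested.

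Between genotypes, no P450 gene was called in KO against WT mice under L-AC or under saline, nor in the interaction of genotype and L-AC, by edgeR's quasi-likelihood test. Over all genes, 0.00704% were called higher and 0.00704% lower in each of the genotype comparisons, and 0.0% in the interaction. Libraries of KO and WT mice overlapped for every member under saline, where 0.0634% of all genes lay above and 0.0775% below without overlap. The members' log2 fold changes ran between -1.84 and 0.60 under L-AC (median -0.12) and between -0.66 and 0.60 under saline (median 0.05). At an unadjusted p under 0.05 there were 4 members under L-AC (Cyp1a2, Cyp2d22, Cyp2s1 and Cyp2t4), 1 under saline (Cyp2t4) and 1 in the interaction (Cyp2s1). Of all 14196 genes tested, 643 did so under L-AC, 264 under saline and 320 in the interaction. limma-voom called no member in any of these comparisons, and DESeq2 called 1, Cyp2s1, lower in KO mice under L-AC.

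Cyp2s1, an extrahepatic epithelial P450, was scarce and stood apart under L-AC. The KO mice given L-AC had 0.205, 0.151, 0.207, 0.250 and 0.185 CPM, from 4 to 7 reads a library, against 0.362 to 1.13 CPM with a median of 0.666 in WT mice given L-AC, from 13 to 41 reads. No library overlapped, which was the case for 0.24% of all genes in that direction, and Cyp2s1 was the member of which this was true. It had met the minimum of 10 reads in all 13 WT libraries, 2 KO saline libraries and no KO L-AC library, so it entered through the genotype where it is higher, and this contrast is a description. No member lay above without overlap, against 0.211% of all genes. The log2 fold change was -1.84 (SE 0.36) with an adjusted p of 0.148 by edgeR's quasi-likelihood test, 0.0132 by DESeq2, and 0.0362 by edgeR without WT L-AC replicate 6. Within genotypes, L-AC against saline gave 0.68 in WT mice (SE 0.29, adjusted p = 0.0489) and -0.56 in KO mice (SE 0.39, adjusted p = 0.248); the WT call was lost in 17 of 23 fits with a library left out (adjusted p = 0.0526 to 0.153). Subtracting the WT response to L-AC from the KO response gave -1.24 (SE 0.49), with an adjusted p of 1 in edgeR's quasi-likelihood test. Cyp2t4, also scarce, averaged 0.240 ± 0.107 CPM in KO L-AC, 0.390 ± 0.0648 CPM in WT L-AC, 0.283 ± 0.113 CPM in KO saline and 0.443 ± 0.148 CPM in WT saline livers (SD). It had log2 fold changes of -0.65 under saline and -0.72 under L-AC in KO against WT mice, and neither passed the adjusted threshold. Cyp2t4 reached 10 reads in 6 WT L-AC, 6 WT saline, 1 KO L-AC and 1 KO saline libraries. It thus entered through the genotype where it is higher, and these contrasts are a description.

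Genes whose products supply P450s with electrons and heme moved in both directions. Por, the reductase that every microsomal P450 depends on, averaged 1204 ± 215 CPM in KO mice given L-AC, 1206 ± 273 CPM in WT mice given L-AC, 332 ± 40.0 CPM in KO mice given saline and 354 ± 180 CPM in WT mice given saline (SD, n = 5, 6, 5 and 7). It rose in both genotypes, with log2 fold changes of 1.86 (adjusted p = 8.4e-06) and 1.77 (adjusted p = 2.05e-06) by edgeR's quasi-likelihood test, while the other 3 redox partners, Cyb5b (-1.24 and -1.12), Cyb5 (-0.57 and -0.48) and Cyb5r3 (-0.54 and -0.51), fell in KO and WT mice. Of 12 genes of heme synthesis and breakdown, 3 rose and 6 fell in KO mice, and 2 rose and 6 fell in WT mice. Those that rose in both were Alas1, the first enzyme of heme synthesis (0.89 and 0.73), and Hmox1, the heme oxygenase (1.30 and 1.10), and among those that fell were Alad (-1.16 and -1.08) and Fech (-0.70 and -0.64).

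Of 17 receptors and partner factors that act on P450 genes, 10 fell in KO mice with none higher, and 10 fell and 2 rose in WT mice (medians -0.47 and -0.45). Ahr (-1.88 and -1.25), Nr1i3 (-1.04 and -0.77), Cebpa (-1.41 and -1.59) and Nr0b2 (-3.54 and -4.0), the corepressor SHP, fell in both, whereas the PXR gene Nr1i2 had 0.32 in KO mice without passing and rose by 0.35 in WT mice. Other targets of CAR and PXR moved both ways: of 17, with Por counted again, 3 rose and 7 fell in KO mice and 3 rose and 5 fell in WT mice. The aldo-keto reductase Akr1b7 (4.99 and 3.39) and the transporter Abcb1a (1.15 and 1.08) rose, and Aldh1a1 (-1.80 and -1.84) and Ugt2b34 (-1.30 and -1.23) fell. Of 5 tested Ahr targets outside the P450s, 2 fell in KO mice, and 2 fell and 2 rose in WT mice. The flavin monooxygenases and epoxide hydrolases, the other microsomal oxidation and hydrolysis enzymes, gave 2 higher and 2 lower of 6 in KO mice and 4 higher and 1 lower of 6 in WT mice, Fmo4 among the higher (1.05 and 1.18).

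Among male-predominant liver genes outside these families, 9 of 15 fell and 1 rose in KO mice, and 10 fell and 1 rose in WT mice (medians -1.01 and -0.79), with Hsd3b5, a steroid reductase of male liver, lowest at -3.92 and -4.48. Of 12 tested female-predominant genes outside these families, 5 rose and 1 fell in KO mice, and 6 rose and 2 fell in WT mice (medians 0.17 and 0.55). The P450s named above as female-predominant, Cyp2a4, Cyp2b9 and Cyp2b13, had negative estimates in both genotypes and were called in neither. In growth hormone signalling, 4 of 9 genes fell in each genotype, among them the receptor Ghr (-1.44 and -1.31) and the transducer Stat5b (-0.79 and -0.74), with none higher in KO mice and 1 in WT mice. Pericentral genes outside the P450s, which mark the zone where most of these enzymes are made, fell for 8 of 14 in KO mice and 10 of 14 in WT mice with none higher (medians -1.0 and -1.05), Lgr5 (-2.91 and -2.60) and Glul (-1.13 and -1.04) among them. Periportal genes went both ways, with 2 higher and 3 lower of 11 in KO mice and 3 higher and 4 lower in WT mice. Targets of PPARA, the fatty acid receptor, rose for 16 of 19 in both genotypes with none lower. Acute phase genes gave 5 higher and 3 lower of 19 in KO mice and 1 higher and 6 lower in WT mice. The background for every one of these counts is that of all genes given above, and whether any of them accounts for the P450 levels was not tested.

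Markers of other liver cells were read in the same fit. Over all genes, 23.6% were called lower and 25.2% higher in KO mice, and 26.7% lower and 26.6% higher in WT mice. Summed Kupffer cell markers (8 genes) were lower after L-AC, at 45.2 to 105 CPM in KO mice given L-AC, 46.3 to 106 CPM in WT mice given L-AC, 97.4 to 203 CPM in KO mice given saline and 76.1 to 262 CPM in WT mice given saline, and 4 and 6 of the 8 were called lower in KO and WT mice. Endothelial markers gave 2 of 8 lower in each genotype (25%), near the share of all genes. Stellate cell markers gave 1 higher and 1 lower of 8 in KO mice and 3 higher and 1 lower in WT mice. Cholangiocyte markers gave 1 of 5 lower in each (20%), also near that share. Of 5 lymphocyte markers tested, 1 was higher and 2 lower in KO mice and 1 higher and 4 lower in WT mice. No neutrophil marker of the 3 tested was called by edgeR's quasi-likelihood test, with 1 at an unadjusted p under 0.05 in KO mice and none in WT mice. Of all 14196 genes tested, 7825 in KO mice and 8286 in WT mice were under that p. Kidney markers, looked at because several Cyp2j and Cyp2c genes are also made there, summed to at most 0.545 CPM. Lung markers summed to at most 2.46 CPM and pancreas markers to at most 37.7 CPM. Intestine markers summed to 151 to 318 CPM (KO) and 182 to 339 CPM (WT) after L-AC. After saline they summed to 83.8 to 116 CPM (KO) and 96.8 to 127 CPM (WT). The 1 intestine marker tested was called higher after L-AC in both genotypes. Summed adipose markers reached 1.82 CPM (KO) and 1.42 CPM (WT) after L-AC, against 17.9 and 24.3 CPM after saline. They did not move as a group: of 2 adipose markers tested, 1 was called higher and 1 lower in each genotype. Single genes of these lists, Cdx1 of intestine, Scgb3a2 of lung and Ins2 of pancreas, had no read in any library.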

How the data were processed

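The deposited files hold raw counts of reads per gene, which the authors made with featureCounts 1.4.4 and a UCSC gene annotation of mm10, per the file headers. Exons were grouped by gene, primary alignments were kept, a read was counted for every gene it overlapped and no strand option was set, per the file headers. Reads of 100 bases, single-end, had been aligned with STAR 2.4.0, per the submitters' processing notes. Similar P450 genes can therefore exchange reads, and antisense partners cannot be told apart.

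Groups come from the labels, with replicates numbered in accession order. Of 56 pairs of libraries within groups, none was a repeat (chi-square over degrees of freedom at least 44.05). Totals were 24521896 to 48095959 reads per library. The counts were fitted with edgeR 4.0.16 in R 4.3.3 (filterByExpr at 10 reads and a total of 15, TMM, estimateDisp, glmQLFit and glmQLFTest, 1 mean per group over 23 libraries), which tested 14196 genes, two-sided, with Benjamini-Hochberg adjustment over all of them. SE is the size of a log2 fold change over the square root of F. Alternatives were DESeq2 1.42.0, limma-voom (limma 3.58.1), DESeq2 size factors in edgeR, no filter, 1 CPM in 5 libraries, age as a covariate, the compared groups only, an adjusted p under 0.01, and each library left out in turn. On simulated counts the KO comparison of L-AC with saline recovered 88% of 2-fold and 98% of 4-fold changes and the WT comparison 80% and 100%, per 50 changed genes of each size. Of 1.5-fold changes, 54% (KO) and 48% (WT) were recovered, and 54% in each comparison of KO with WT mice. Only genes over 1 CPM were changed, and far fewer than were called in the data, so recovery of scarcer genes was not measured.

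The members and the lists of other genes were chosen with earlier results of these data known. Chosen to be named with group values were the called members with the largest fold changes (up to 10 in each direction and genotype, at 1 CPM or more on average), the member with the smallest p in each genotype comparison and the interaction, and the 8 with the highest RPKM. Other members were named to complete their subfamily, and up to 4 genes were taken per other list by p in WT mice, with further list genes chosen after their values were seen. Shared sequence was counted in 100-base windows of GENCODE release 21 transcripts of mouse, where 50 of 52 members matched. Promoter windows from RefSeq (GRCm38.p6) matched 44 members, 46 windows in all.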

Additional observations from a re-analysis of the deposited data

Results flagged for a closer look

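Each of the 24 named P450 genes was looked at in each of the 4 groups for a mouse far from the rest of its group, and 11 of these 96 groups held one by Dixon's criterion at the 95% level. For independent and normally distributed values, chance marks about 1 in 20 groups. The 24 genes were read in the same libraries, so the 11 cannot be weighed against that share. Values are CPM, with the nearest other mouse of the group after them, and no cause was tested.

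In KO mice given L-AC, replicate 5 was high for Cyp2b10 (86.2, nearest 26.0) and for Cyp2c44 (166, nearest 82.8), and replicate 3 was low for Cyp2c68 (22.3, nearest 47.5). In WT mice given L-AC, replicate 3 was high for Cyp2c38 (52.0, nearest 19.7) and for Cyp2f2 (501, nearest 306). In KO mice given saline, replicate 2 was high for Cyp2c54 (376, nearest 216) and replicate 4 for Cyp2c40 (26.2, nearest 18.2). In WT mice given saline, replicate 1 was low for Cyp2d10 (653, nearest 816) and Cyp2d26 (802, nearest 1208) and high for Cyp2c40 (51.9, nearest 27.9). Replicate 4 of WT mice given saline was high for the scarce Cyp2s1 (0.783, nearest 0.463).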

How the results depend on the processing

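The count of P450 genes lower after L-AC, 31 in each genotype, lay between 25 and 36 in KO mice and between 24 and 34 in WT mice under the other settings, and between 30 and 34 (KO) and 27 and 34 (WT) with 1 library left out. Of all genes, 6290 to 7115 (KO) and 7042 to 7761 (WT) were called in either direction under the settings at 0.05, of 12462 to 19861 tested. With 1 library left out these were 6181 to 7105 (KO) and 6935 to 7740 (WT). The 2 calls higher in WT mice became 1 (Cyp2b10) with limma-voom, with no filter, with 1 CPM in 5 libraries, with the compared groups only and at an adjusted p under 0.01, and 1 to 3 with 1 library left out. The count of 0 lower in KO against WT mice under L-AC became 1 with DESeq2 and 0 to 1 with a library left out, the 1 without WT L-AC replicate 6. No log2 fold change of a named member past the threshold turned its sign.

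Leaving aside the stricter threshold, 31 of 32 KO calls held in every fit that tested the gene, Cyp2a5 being the exception, and 27 of 33 WT calls did, the exceptions being Cyp2a12, Cyp2c37, Cyp2d34, Cyp2j9, Cyp2s1 and Cyp3a57. Genes with few reads, Cyp2s1, Cyp2t4 and Cyp2g1 among them, are limited by counting. Called in some other setting or left-out fit, though not in the fit reported, were Cyp2a4, Cyp2a12, Cyp2c39, Cyp2u1, Cyp3a16, Cyp3a41a and Cyp3a44 in KO mice and Cyp1b1, Cyp2a4, Cyp2a5, Cyp2c29, Cyp2c39, Cyp2u1, Cyp3a11 and Cyp3a41b in WT mice. No paired analysis was possible because the labels give no replicate numbers.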
